A study of Mus musculus with 20 samples.

Results

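Nphs1, Slc34a1, Slc13a3, Kap, Umod, Slc12a1, Slc12a3, Calb1, and Scnn1g are marker genes of the successive segments of the nephron, the filtering and reabsorbing unit of the kidney. They were taken as the rows of the count table that carry these names, and 9 of 9 were found among 55401 genes. RNA-seq covered 5 organs of wild-type (WT) and Nsun6-knockout (KO) mice, namely kidney, spleen, liver, heart, and small intestine, with 2 WT and 2 KO libraries per organ and 20 libraries in all. Mice of both groups were C57BL/6J females aged 8 weeks with no treatment named. The KO strain carries a constitutive CRISPR/Cas9 deletion of exons 3 and 4 of Nsun6, which encodes an RNA methyltransferase that makes 5-methylcytosine. The replicates are described as biological, and whether 1 animal gave several of the organs, or whether a kidney was used whole or in pieces, is not given in the sources used here.

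Blood is filtered in the glomerulus through the slit diaphragm between podocytes, and the filtrate then passes the proximal tubule, the loop of Henle with its thick ascending limb, the distal convoluted tubule, the connecting tubule, and the collecting duct. Each segment is known for its own transporters and other proteins, so the transcripts of these proteins serve as markers of the segment. Glomeruli and convoluted tubules lie in the cortex, whereas the loops and the collecting ducts reach into the medulla, so the markers have been used to judge how much of each zone a kidney sample holds.

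The 4 kidney libraries were of nearly the same depth, from 24772312 to 25988075 counts, and the 20 libraries ranged from 15897446 to 44508197. Levels are given as CPM, counts scaled to the size of each library with the trimmed mean of M-values (TMM) over the 20 libraries. Where genes are compared with each other, TPM is used, a scale that also divides by exon length. Nsun6 had 5.44 and 5.83 CPM in the WT and 3.91 and 3.32 CPM in the KO kidneys, but counts over the whole gene check the deletion only weakly, because the deleted exons are a small part of it. Of the 20 libraries, 1 kidney and 1 spleen library stood apart most in the values of these genes. The kidney library WT replicate 2 differed widely from WT replicate 1, and the spleen library KO replicate 1 had higher counts of most of these genes than the other spleens. Kidney fold changes and scores and organ levels that rest on them are given with and without them.

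The coding sequence of 5 of the genes is shown here, because GC content, the share of the bases G and C, accompanied the difference between the WT kidney libraries described further on. Each stretch is the middle 60 bases of the longest coding exon, read 5′ to 3′ on the strand of the gene from the GENCODE transcripts of GRCm38, with G and C in capitals. Slc34a1 and Slc12a3 were far lower in WT replicate 2 than in WT replicate 1, whereas Slc13a3, Slc12a1, and Calb1 were alike in both.
Slc34a1, chr13:55413354-55413413, plus strand, coding exon 12 of 12, 34 of 60 bases G or C: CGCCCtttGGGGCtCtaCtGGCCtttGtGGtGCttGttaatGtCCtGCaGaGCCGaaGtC
Slc12a3, chr8:94329346-94329405, plus strand, coding exon 1 of 25, 34 of 60 bases G or C: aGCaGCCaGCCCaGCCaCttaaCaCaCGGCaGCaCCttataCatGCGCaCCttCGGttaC
Slc13a3, chr2:165448625-165448684, minus strand, coding exon 2 of 13, 35 of 60 bases G or C: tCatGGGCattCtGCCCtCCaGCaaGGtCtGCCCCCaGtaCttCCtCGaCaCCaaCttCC
Slc12a1, chr2:125154095-125154154, plus strand, coding exon 1 of 26, 28 of 60 bases G or C: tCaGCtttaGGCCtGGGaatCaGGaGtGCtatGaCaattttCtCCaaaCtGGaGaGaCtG
Calb1, chr4:15904675-15904734, plus strand, coding exon 11 of 11, 29 of 60 bases G or C: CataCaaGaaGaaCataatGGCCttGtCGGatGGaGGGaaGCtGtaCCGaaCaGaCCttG

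Over the whole transcript the GC content was 54.7% for Slc34a1, 55.5% for Slc12a3, 56.2% for Slc13a3, 45.5% for Slc12a1, and 36.8% for Calb1. The stretch of Slc13a3 thus comes from a transcript as rich in GC as those of Slc34a1 and Slc12a3. The GC content of the remaining members was 56.4% for Nphs1, 42.9% for Kap, 51.5% for Umod, and 49.8% for Scnn1g.

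Podocytes were represented by Nphs1 (ENSMUSG00000006649, chromosome 7, 30458315 to 30487223), which encodes nephrin, the adhesion protein that spans the slit diaphragm. Nphs1 had 20.7 and 3.89 CPM in WT replicates 1 and 2 and 14.7 and 9.7 CPM in KO replicates 1 and 2. It was the least abundant member, with a mean of 5.93 TPM over the 4 kidney libraries, and WT replicate 2 rested on only 94 counts. Both KO libraries lay between the WT libraries, which differed 5.3-fold from each other. On the log2 scale, the fold change of KO over WT was -0.06 (standard error 0.82, edgeR adjusted p = 0.999927). Of the exon bases of Nphs1, 11.8% are shared with Nphs1os and Rps12-ps4, so some of its reads may have been left uncounted.

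The proximal tubule was represented by 3 genes. Slc34a1 (ENSMUSG00000021490, chromosome 13, 55398187 to 55415592) encodes the main phosphate transporter of the proximal convoluted tubule. Its level was 4200 and 518 CPM in WT and 2740 and 1520 CPM in KO, so that the KO libraries again lay between WT libraries that differed 8.1-fold. KO over WT was -0.19 for Slc34a1 on the log2 scale (standard error 1.02), and 11.7% of the exon bases are shared with Pfn3. Slc13a3 (ENSMUSG00000018459, chromosome 2, 165405028 to 165473230) encodes a sodium-coupled transporter of dicarboxylates. Slc13a3 had 395 and 400 CPM in WT and 537 and 286 CPM in KO. Here the WT libraries were nearly equal and the KO libraries enclosed them. Its log2 fold change was 0.02 (standard error 0.44).

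Kap (ENSMUSG00000032758, chromosome 6, 133849851 to 133853762) encodes kidney androgen-regulated protein, a product of proximal tubule cells whose transcription responds to androgens. It ranked highest in TPM among all genes in each of the 4 kidney libraries, although all mice were female, and took from 2.01% to 3.75% of their counts. Kap had 15100 and 39000 CPM in WT and 26100 and 33100 CPM in KO. WT replicate 2 was the highest and WT replicate 1 the lowest, a 2.6-fold difference in the direction opposite to that of Slc34a1. For Kap the log2 fold change was 0.11 (standard error 0.83).

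The thick ascending limb was represented by 2 genes. Umod (ENSMUSG00000030963, chromosome 7, 119462711 to 119479282) encodes uromodulin, a protein found in urine. Umod had 900 and 1860 CPM in WT and 2330 and 1870 CPM in KO, and both KO libraries lay above both WT libraries, KO replicate 2 by a narrow margin. The log2 ratio of KO to WT for Umod was 0.59 (standard error 0.55), which did not pass the test. Of the exon bases of Umod, 19.5% are shared with Gm44588. Slc12a1 (ENSMUSG00000027202, chromosome 2, 125152505 to 125230002) encodes the sodium-potassium-chloride cotransporter on which loop diuretics act. Slc12a1 was the steadiest member, with 1200 and 1260 CPM in WT and 1350 and 1420 CPM in KO. The groups did not overlap on this scale, but as a share of all counts Slc12a1 took 0.16% and 0.12% in WT and 0.152% and 0.161% in KO, which overlapped. Its log2 fold change was 0.14 (standard error 0.43).

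The distal convoluted tubule was represented by Slc12a3 (ENSMUSG00000031766, chromosome 8, 94329201 to 94366214), which encodes the sodium-chloride cotransporter on which thiazides act. Slc12a3 had 3630 and 225 CPM in WT and 1740 and 1640 CPM in KO. The KO libraries were nearly equal, whereas the WT libraries differed 16.1-fold, the widest difference of any member. Its log2 fold change was -0.24 (standard error 1.19). The TPM of Slc12a3 is understated against that of other genes, because its counted exons add up to 11119 bases and its coding transcript has 3299.

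Calb1 (ENSMUSG00000028222, chromosome 4, 15881264 to 15908064) encodes calbindin-D28k, a calcium-binding protein of the distal convoluted and connecting tubules. Calb1 had 1020 and 1170 CPM in WT and 858 and 925 CPM in KO, and each KO library was lower than either WT library on this scale. In TPM the groups overlapped, with 789 and 532 in WT and 512 and 548 in KO. For Calb1 the log2 fold change was -0.32 (standard error 0.42), which did not pass the test and became 0.056 after correction for GC content. Scnn1g (ENSMUSG00000000216, chromosome 7, 121734479 to 121768475) encodes the gamma subunit of the epithelial sodium channel, through which principal cells of the collecting duct take up sodium under aldosterone. Scnn1g had 39.1 and 19.4 CPM in WT and 37.7 and 25.6 CPM in KO. WT replicate 2 was again the lowest, and the log2 fold change was 0.08 (standard error 0.47).

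**Figure D1:**
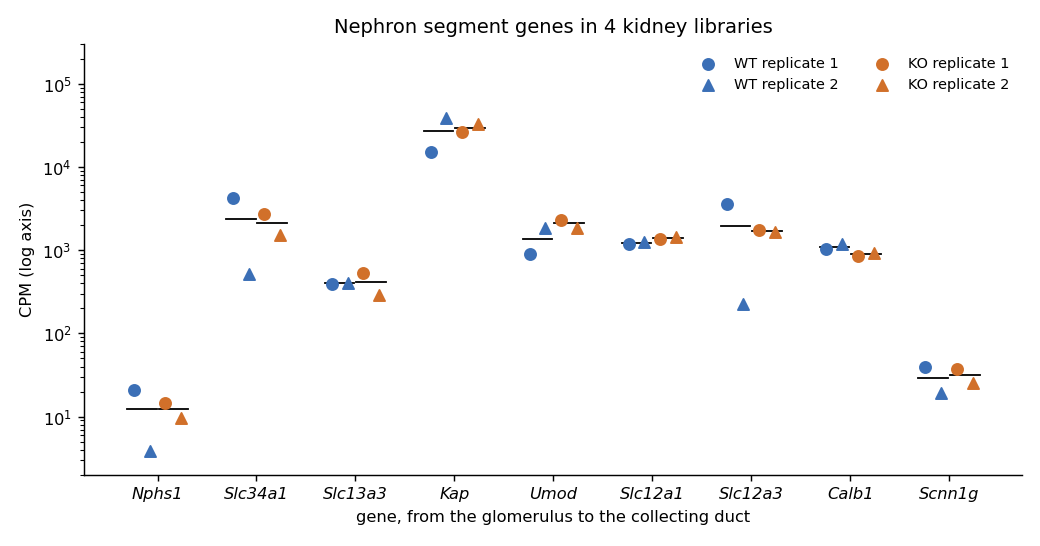
CPM of the 9 nephron segment genes in each of the 4 kidney libraries on a log axis, with WT in blue, KO in orange, replicate 1 as circles, replicate 2 as triangles, and the mean of each genotype as a black line. Slc12a3, Slc34a1, and Nphs1 spread 16.1-fold, 8.1-fold, and 5.3-fold between the WT libraries, whereas Slc12a1, Slc13a3, and Calb1 stay close together in WT.

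In the test of KO against WT kidneys, 0 of 9 members were called by edgeR's quasi-likelihood test, which required more than a 2-fold change at an adjusted p under 0.1, and the adjusted p was 0.999927 for each of them. Over all 17550 genes tested in the kidney 0% were called, with 71 genes higher and 41 lower in KO at an unadjusted p under 0.05, and DESeq2 called 0 as well. The median log2 fold change was 0.02 over the members and -0.03 over all genes tested. Both KO libraries lay above both WT libraries for 2 members (Umod and Slc12a1), where this held for 11.7% of all genes, and below them for 1 member (Calb1), where this held for 9.3%. They lay between the WT libraries for 5 members, where this held for 46.7% of all genes. With 9 members, counts of this size are no result about the members.

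The absence of calls rested on the pair of WT libraries, since without KO replicate 1 or 2 only 2 genes or 1 gene were called and no member. Without WT replicate 1, edgeR called 2938 genes, among them Slc12a3 (log2 fold change 2.90, adjusted p = 4.68e-06), Slc34a1 (2.03, adjusted p = 0.0121), and Nphs1 (1.64, adjusted p = 0.00949), all higher in KO. Without WT replicate 2, it called 444 genes, with Slc12a3 lower in KO (-1.12, adjusted p = 0.0214) and Umod higher (1.20, adjusted p = 0.0294). Slc12a3 was therefore called in opposite directions depending on which WT kidney was kept. In these fits the lone WT library is assumed to vary like the KO libraries.

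A score of cortex against thick limb and collecting duct was built. It was the mean log2 CPM of Nphs1, Slc34a1, Slc12a3, and Calb1 minus that of Umod, Slc12a1, and Scnn1g. Slc13a3 and Kap of the proximal tubule were not part of it, and between the WT libraries they did not follow Slc34a1. It was 1.11 and -1.23 in WT replicates 1 and 2 and 0.01 and -0.08 in KO replicates 1 and 2. The means of KO and WT differed by 0.03, against a standard deviation of 1.17 within genotypes. This small difference came from averaging opposite WT libraries, as it became 1.20 when WT replicate 1 was left out and -1.14 when WT replicate 2 was left out. The highest and the lowest score thus both belonged to WT kidneys. Taken at face value, the score would place WT replicate 1 on the side of the cortex and WT replicate 2 on the other side. The genes of the score did not all move this way. From WT replicate 1 to WT replicate 2, Nphs1, Slc34a1, and Slc12a3 fell and Umod rose. Scnn1g fell as well (-1.06 in log2 CPM), against this direction, and Slc12a1 (0.02) and Calb1 (0.15) hardly moved.

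The genes that share a segment with a member did not all move with it, so the score was not taken as a measure of how much cortex a library holds. Among podocyte genes, Synpo, an actin-binding protein of the foot process, fell with Nphs1 from 51.4 CPM in WT replicate 1 to 17 CPM in WT replicate 2. Podxl, which encodes a protein of the podocyte surface, had 100 CPM in WT replicate 1 and 133 CPM in WT replicate 2. Of 14 other podocyte genes, 1 was over 2-fold lower and 2 were over 2-fold higher in WT replicate 2.

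The same split appeared along the tubule. Slc5a2, the glucose transporter that works beside Slc34a1 in the proximal convoluted tubule, had 519 CPM in WT replicate 1 and 45.8 CPM in WT replicate 2, but Lrp2, the endocytic receptor megalin of the same cells, had 1370 and 2510 CPM. Of 11 other genes of this segment, 2 were over 2-fold lower and 2 over 2-fold higher in WT replicate 2. Among 7 other genes of the distal convoluted tubule, Wnk4, a kinase that controls Slc12a3, had 282 and 18 CPM and Klhl3, which marks WNK kinases for degradation, had 96.8 and 18.2 CPM. The potassium channel gene Kcnj16 of the same segment had 582 and 1220 CPM, and the calcium-binding protein gene Pvalb had 36.1 and 66 CPM. Of 11 other thick ascending limb genes, 2 were over 2-fold lower and 2 over 2-fold higher in WT replicate 2. Of 5 thin limb genes, 1 was over 2-fold lower and 2 were over 2-fold higher. Of 5 genes listed for osmolytes of the inner medulla, 1 was likewise lower and 2 were higher. Of the 3 subunits of the epithelial sodium channel, Scnn1g had company in Scnn1a with 61.9 and 7.99 CPM and in Scnn1b with 49.3 and 14.4 CPM. Of 10 other principal cell genes, 5 were over 2-fold lower in WT replicate 2, the water channel gene Aqp2 among them with 115 and 21.3 CPM, and 2 were over 2-fold higher, including the water channel gene Aqp4 with 38.6 and 107 CPM.

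**Figure D2:**
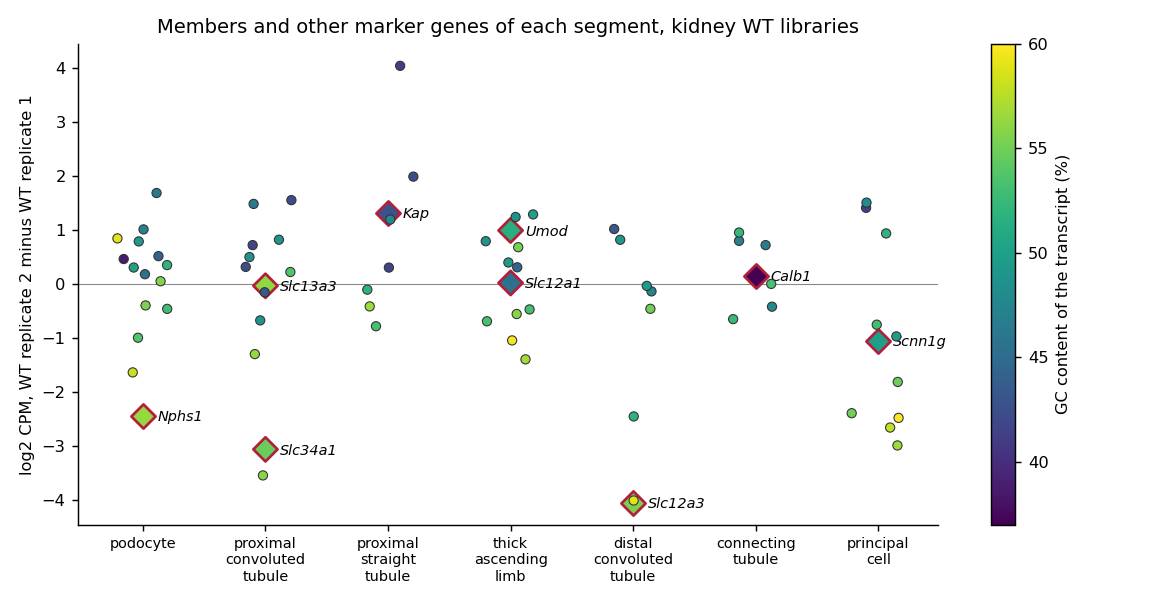
Difference in log2 CPM between WT replicates 2 and 1 for the members (large diamonds) and the other marker genes (small circles) of 7 nephron segments, coloured by the GC content of the transcript. Slc13a3 is drawn with the proximal convoluted tubule, although it was listed with the proximal straight tubule. Genes of 1 segment scatter to both sides of 0, and in the podocyte, proximal convoluted tubule, and distal convoluted tubule the members Nphs1, Slc34a1, and Slc12a3 lie at or near the bottom of their segment.

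Over 10 lists of nephron segments with 86 other genes tested, 17 genes were over 2-fold lower and 16 over 2-fold higher in WT replicate 2 than in WT replicate 1, where these shares were 25.1% and 12.2% over all genes tested in the kidney. The median GC content was 56.4% for the 17 lower genes, the lowest of which had 51.9%, and 46.3% for the 16 higher genes. In the test of KO against WT 0 of the 86 genes were called, and their median log2 fold change was 0.04. Lists of pathways gave 0 calls as well, with 0 of 7 in the WNK kinase pathway that acts on Slc12a3, 0 of 11 in phosphate handling, 0 of 8 in calcium reabsorption, 0 of 8 in the sodium channel and aldosterone response, and 0 of 10 in salt reabsorption of the thick limb. Among 12 nephron transcription factors, 10 were lowest in WT replicate 2, where this held for 38.7% of all genes tested. Pax2 had the widest difference of them, with 49.4 and 0.869 CPM in WT replicates 1 and 2.

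Of each list, the genes at either end of the log2 fold changes of KO over WT were also looked at, and none of them passed the test. In the proximal straight tubule the highest was Slc22a7, an organic anion transporter, with 63.1 and 49 CPM in WT and 180 and 117 CPM in KO. The lowest was Slc7a13, an amino acid transporter, with 0.691 and 12.9 CPM in WT and 1.13 and 1.5 CPM in KO, so that 1 WT library made the difference. In the thin limb the urea transporter gene Slc14a2 was highest, with 13.8 and 16.3 CPM in WT and 32.4 and 35.1 CPM in KO. In the connecting tubule the lowest was S100g, which encodes calbindin-D9k, with 1720 and 3090 CPM in WT and 1290 and 1360 CPM in KO. Its KO libraries were below its WT libraries, where this held for 9.3% of all genes. The KO libraries of Slc22a7 and Slc14a2 were above their WT libraries, where this held for 11.7% of all genes. As these genes were picked for the ends of their lists, these separations are no result about them.

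The highest and the lowest genes were Kirrel and Thsd7a among podocyte genes, Cubn and Slc5a12 in the proximal convoluted tubule, Cldn19 and Kcnj1 in the thick ascending limb, Kcnj10 and Wnk4 in the distal convoluted tubule, Avpr2 and Elf5 in principal cells, and Aqp6 and Atp6v1g3 in intercalated cells. Cubn, the endocytic receptor cubilin, had 192 and 558 CPM in WT and 519 and 547 CPM in KO. Avpr2, the vasopressin receptor gene, had less than 1 CPM in each library, with 0 counts in WT replicate 2, which allows up to 0.124 CPM.

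GC content and exon length moved with the difference between the WT kidneys across the whole table. Over 13489 genes with a mean of at least 50 counts, Spearman's rho between the difference in log2 CPM (WT replicate 2 minus WT replicate 1) and GC content was -0.42, and that with exon length was -0.27. When these genes were split into 10 groups by GC content, the median difference was 0.41 in the group with the lowest GC content and -1.61 in the group with the highest. Between the KO kidneys rho with GC content was -0.38, but the medians of these groups ranged from 0.12 to -0.26. These are correlations across genes of the same libraries, and genes are not independent replicates.

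Among the members, Slc12a3 (-4.06 in log2 CPM), Slc34a1 (-3.07), and Nphs1 (-2.44) had a GC content of 54.7% or more, and Kap (1.33) had 42.9%. Slc13a3 went against this order, with a difference of -0.03 at 56.2%, and Umod had a difference of 0.995 at 51.5%. Of all genes tested in the kidney, 1.63% differed more between the WT libraries than Slc12a3, 5.03% more than Slc34a1, and 9.03% more than Nphs1. Slc12a1 with 0.02 and Calb1 with 0.15 were among the genes that differed least. Between the KO libraries the differences ran from -0.91 for Slc13a3 to 0.34 for Kap.

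**Figure D3:**
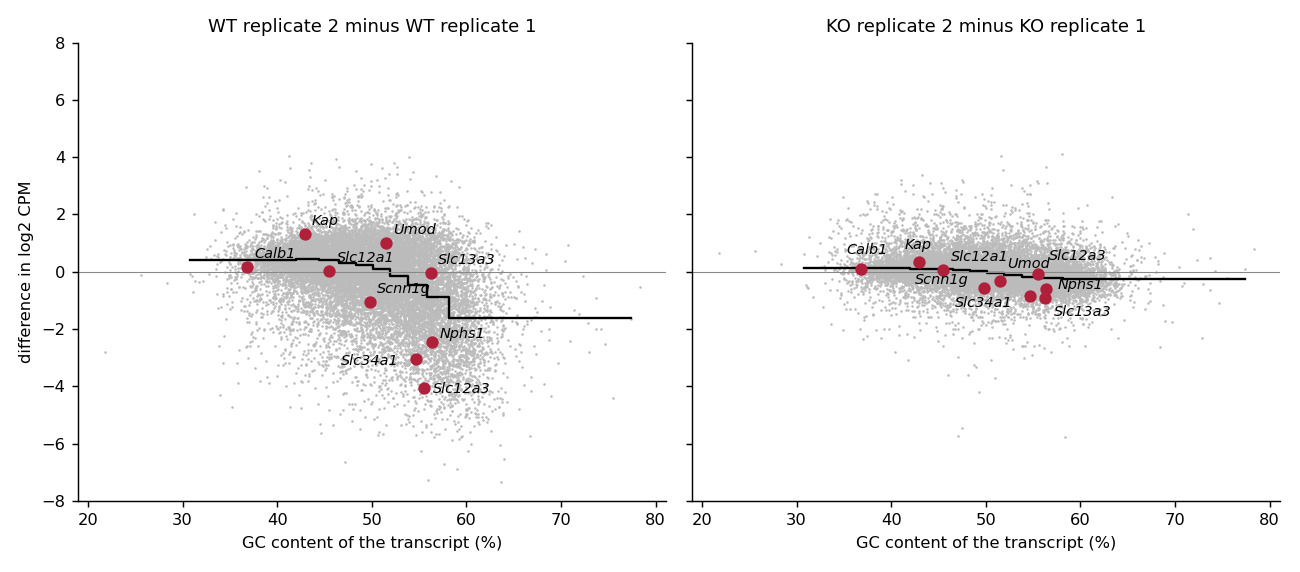
Difference in log2 CPM between the replicates of the same genotype in kidney, WT on the left and KO on the right, against the GC content of each transcript. Gray points are the genes tested, black lines are medians of 10 groups of genes by GC content, and red points are the members, of which Slc12a3, Slc34a1, and Nphs1 lie lowest in WT at -4.06, -3.07, and -2.44.

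Removing the smooth trend over GC content and exon length narrowed some of these differences and not others. For Nphs1 the difference went from -2.44 to -0.73 and for Slc12a3 from -4.06 to -2.28, a 4.87-fold difference that was left. For Slc34a1 it went from -3.07 to -2.08, for Scnn1g from -1.06 to -1.25, and for Slc13a3 from -0.03 to 1.43. The score of cortex against thick limb and collecting duct became 0.62 and -0.55 in WT and -0.12 and -0.13 in KO. After this correction 0 members were called between KO and WT. With the trend over GC content alone removed, the WT differences were -1.52 for Nphs1, -2.47 for Slc34a1, and -3.30 for Slc12a3. The length entered for Slc12a3 was its 11119 counted exon bases, whereas its coding transcript has 3299, so its length correction is uncertain.

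Genes within 2 percentage points of GC content and 0.5 log2 units of exon length of each member were also taken, a comparison chosen after seeing the data. Of 264 such genes for Slc12a3, 90% had a WT difference between -3.59 and 0.25, so that Slc12a3 at -4.06 fell below this range. These genes were matched to its 11119 counted exon bases and not to the length of its coding transcript. Slc34a1 at -3.07 and Nphs1 at -2.44 fell within their ranges, from -3.23 to 0.82 over 1106 genes and from -3.83 to 0.28 over 714 genes. Kap at 1.33 lay just above the range from -0.97 to 1.24 of 50 genes.

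Markers of other tissues also differed between the WT kidneys. The summed level of 6 stromal and smooth muscle genes was 121 CPM in WT replicate 1, 316 CPM in WT replicate 2, and 143 and 205 CPM in KO, and that of 6 urothelial genes was 17.8, 52.8, 24.2, and 26.6 CPM in the same order. The summed level of 5 liver genes was 70.5 CPM in WT replicate 1, 268 CPM in WT replicate 2, and 170 and 140 CPM in KO. Dcn alone held 59.8 and 200 CPM of the stromal level in WT replicates 1 and 2. In other lists KO replicate 2 was highest. In the same order of libraries, 6 endothelial genes summed to 187, 415, 289, and 480 CPM and 7 immune genes to 80.3, 151, 161, and 195 CPM. Of 8 adrenal gland genes, 5 were at 0 counts in every kidney library, and the summed level of 5 heart genes ranged from 1.24 to 3.39 CPM. Of 5 small intestine genes, Vil1 had 61.5 to 96 CPM in kidney, and the other 4 had at most 0.422 CPM. The part of tissue content and of base composition in the differences of the members was not tested. In whole organs, fewer cells of a segment and less RNA per cell cannot be told apart.

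The genes whose profile over the 20 libraries was most like that of a member were sought among 14649 genes by the root mean square difference of centred log2 CPM. For Nphs1 they were Dusp15 (0.55) and Rhpn1 (0.76), which were also lowest in WT replicate 2, at 2.28 and 3.23 CPM. For Scnn1g they were Tmem213 (0.58) and Foxi1 (0.63), for Calb1 Fut9 (0.71) and Slc22a8 (0.87), and for Slc12a1 the same pair, Slc22a8 (0.69) and Fut9 (0.87). Umod was nearest to Fut9 (0.76) and Miox (0.95), Kap to Umod (1.18) and Miox (1.31), and Slc13a3 to Nox4 (1.11) and Slc22a28 (1.14). Slc12a3 was nearest to Slc22a12 (0.99) and Folh1 (1.27) and Slc34a1 to Cltrn (1.13) and Ugt1a2 (1.37). Likeness over the 20 libraries did not always mean likeness within the kidney, as Cltrn, nearest to Slc34a1, had 2270 CPM in WT replicate 1 and 3690 CPM in WT replicate 2.

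Across organs, all 9 members were highest in kidney, and the 4 kidney libraries did not overlap with those of any other organ. As the genes were chosen as kidney markers, their organ levels are given as a description. The lowest kidney library exceeded the highest library of any other organ 926.4-fold for Slc12a1, 671.3-fold for Umod, 444.4-fold for Kap, 419.2-fold for Calb1, 111.3-fold for Scnn1g, 85.4-fold for Slc34a1, 44.2-fold for Slc12a3, 12.8-fold for Slc13a3, and 8.3-fold for Nphs1. For Slc12a1, Umod, Kap, Calb1, and Slc34a1 that highest library was spleen KO replicate 1. Without it, no library outside the kidney exceeded 0.145 CPM for Slc12a1, 0.485 CPM for Umod, 2.42 CPM for Kap, 0.435 CPM for Calb1, and 1.52 CPM for Slc34a1. By the mean over libraries, spleen came second for 8 members and liver for Slc13a3. Without spleen KO replicate 1, the second organ was liver for Kap, Umod, and Slc12a1, heart for Slc12a3 and Calb1, and small intestine for Slc34a1 and Scnn1g. Some of these places rested on a few counts and set no order. Slc12a1 had means of 0.0426, 0.0393, and 0.0362 CPM in liver, heart, and small intestine, with at most 4 counts in a library. Scnn1g had a mean of 0.0634 CPM in small intestine, with 2 libraries at 0 counts. With all libraries, organs next to each other in the order below kidney overlapped, with these exceptions. For Nphs1 spleen stood above the small intestine, but by only 3 counts in its lowest library against 2 in the highest of the small intestine. For Slc13a3 liver stood above the spleen and heart above the small intestine.

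Slc13a3 reached its second highest level in liver, with 16.6 and 22.4 CPM in WT and 19.2 and 20.2 CPM in KO. These 4 values stood apart from the 0.517 to 1.45 CPM of the spleen and the 0.497 to 0.769 CPM of the heart, which overlapped with each other. The small intestine came last with at most 0.0825 CPM. Between KO and WT livers the log2 fold change of Slc13a3 was 0.01 (standard error 0.23, edgeR adjusted p = 0.999473).

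Nphs1 was detected in all 4 spleen libraries, with 12 and 18 counts in WT and 3 and 8 counts in KO, or 0.0682 to 0.47 CPM. In liver and heart it had 0 counts in every library. A count of 0 allows up to 3 counts, which is from 0.0575 to 0.225 CPM in the libraries outside the kidney, and this limit covers counting error only. Slc12a3 had 1.74 to 3.75 CPM in spleen and 0.15 to 5.09 CPM in heart, so these organs overlapped.

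**Figure D4:**
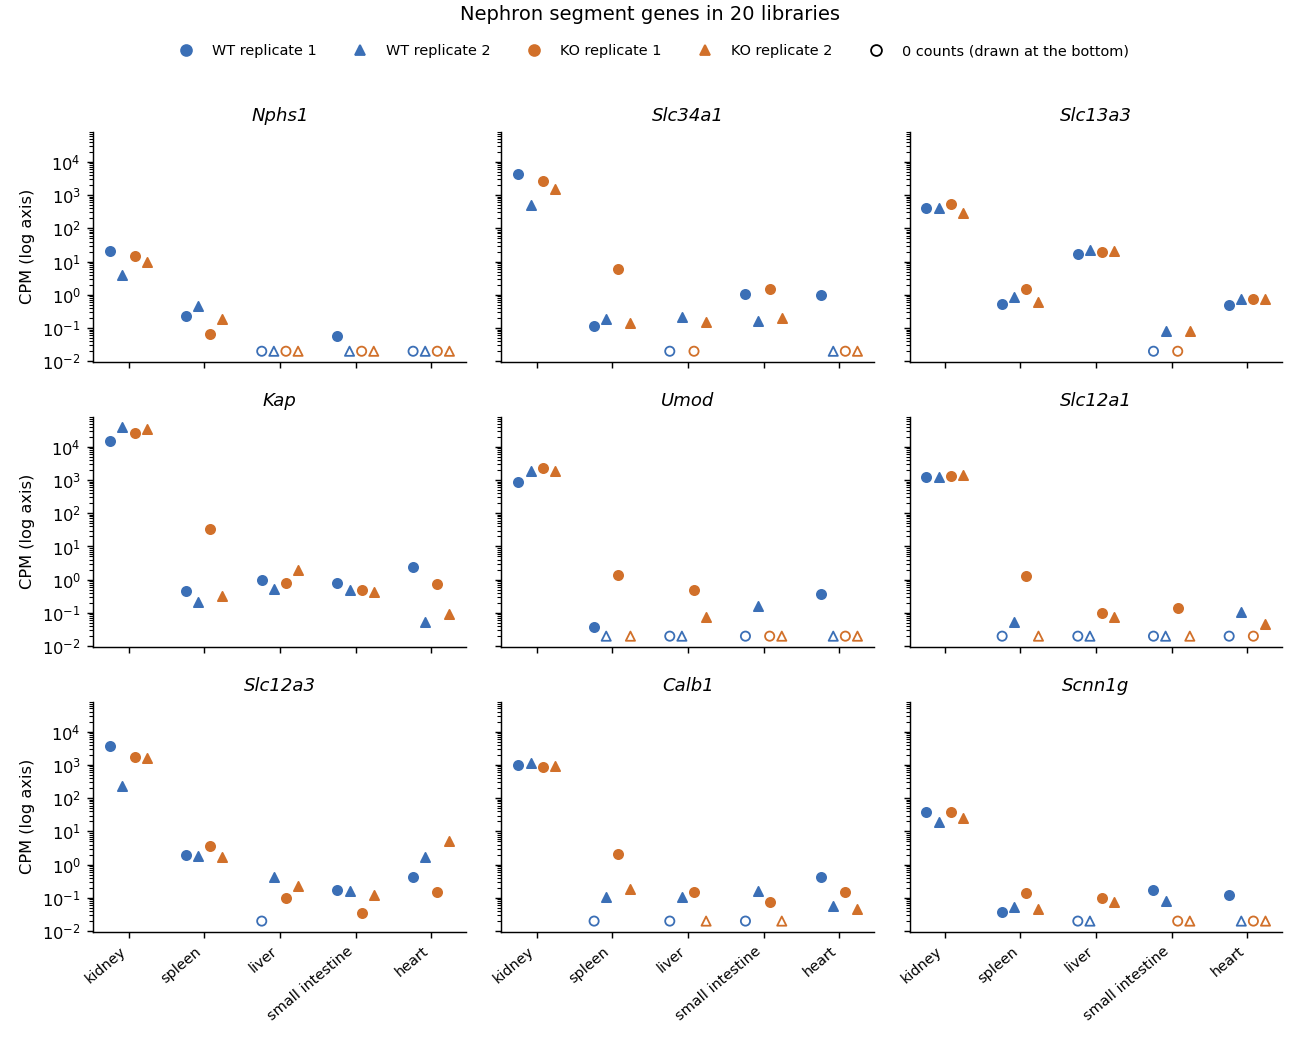
CPM of each member in the 20 libraries on a log axis, by organ, with WT in blue, KO in orange, replicate 1 as circles, and replicate 2 as triangles. Libraries with 0 counts are open symbols at the bottom; kidney is highest for each gene, Slc13a3 in liver forms a tight group from 16.6 to 22.4 CPM, and the spleen library KO replicate 1 stands above the other spleens for 8 members.

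In the spleen library KO replicate 1, 8 of the 9 members were higher than in the other 3 spleen libraries. Kap had 1490 counts in this library against 24, 8, and 14 counts in WT replicates 1 and 2 and KO replicate 2. Slc34a1 had 267 counts against 6, 7, and 6, and Slc12a3 had 165 against 103, 68, and 74. Calb1 had 90 counts against 0, 4, and 8, Umod 59 against 2, 0, and 0, and Slc12a1 57 against 0, 2, and 0. Nphs1 was the exception, with 3 counts against 12, 18, and 8.

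Above the mean of the other spleens, the level in this library as a percentage of the mean level in kidney was 0.118% for Kap, 0.264% for Slc34a1, 0.0764% for Umod, 0.0978% for Slc12a1, 0.106% for Slc12a3, 0.196% for Calb1, 0.198% for Slc13a3, and 0.297% for Scnn1g, which rested on 6 counts. For comparison, 26 other genes with at least 100 CPM in kidney and at most 1 CPM in the 15 libraries outside the kidney other than this one were taken, a choice made after the values were seen. Of these, 25 had a count in spleen KO replicate 1, with a median of 0.129% of the kidney level and quartiles of 0.0785% and 0.235%. In the other spleens, 14, 9, and 7 had a count in WT replicates 1 and 2 and KO replicate 2. As the limit of 1 CPM spared only spleen KO replicate 1, that library alone was free to be high, and these values are a description. For these 26 genes the level of the other spleens was not subtracted. Without that subtraction, Slc34a1 (0.27%), Slc13a3 (0.36%), and Scnn1g (0.448%) of the members above exceeded the upper quartile. Umod (0.0772%) lay just below the lower one.

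No member was called between KO and WT in any of the other organs by edgeR. The number of members with enough counts to be tested was 4 in spleen, 3 in heart, 2 in liver, and 2 in small intestine. Over all genes tested, 0.223% were called in spleen, 0.0509% in liver, 0% in heart, and 0% in small intestine. In the spleen the log2 fold change of Kap was 5.65 with a standard error of 3.01, since only 1 of the KO libraries was high. In the heart, 31 genes were higher and 86 lower in KO at an unadjusted p under 0.05, and DESeq2 called 3 genes, and in the small intestine these counts were 313, 109, and 51. The shares of called genes depended on the tool, as DESeq2 called 208 genes in spleen and 53 in liver, where edgeR called 42 and 8. DESeq2 called no member in these organs either. The difference in genotype effect between kidney and another organ was tested for 11 pairs of a member and an organ in 1 edgeR fit of the 20 libraries, and the smallest adjusted p was 0.999963.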

How the data were processed

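RNA-seq of 5 organs from WT and Nsun6-KO mice was analysed from the raw gene counts that the authors deposited, made by trimming read pairs with cutadapt, mapping with HISAT2 2.1.0, and counting exons with featureCounts 2.0.1 on GRCm38. Strand and pair options of the counter are named in the methods but not in the file header. Exon lengths came from the same table, and transcript sequences and GC content from GENCODE M21.

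Groups and replicates were taken from the sample titles. edgeR 4.0.16 in R 4.3.3 was used within each organ with TMM, filterByExpr, and the robust quasi-likelihood test, calling genes with over a 2-fold change and a p under 0.1 after Benjamini-Hochberg adjustment. DESeq2, the tool of the authors, served as an alternative in version 1.42.0. Standard errors are the log2 fold change over the square root of F. The edgeR fit was tested on simulated counts. Smooth trends over GC content and length were fitted by loess with a span of 0.3. Differences between replicates are log2 CPM with a prior count of 2, scaled within kidney. Tables and figures used Python 3.11.15, numpy 2.4.6, pandas 2.3.3, and matplotlib 3.10.9.

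The members and the 31 gene lists were chosen with earlier results of these data known. Genes named beside the members were the 2 nearest profiles of each and, in each list, the genes at either end of the kidney log2 fold changes, of which most of those in the segment lists are given. The genes compared between the WT kidneys (Synpo, Podxl, Slc5a2, Lrp2, Wnk4, Klhl3, Kcnj16, Pvalb, Scnn1a, Scnn1b, Aqp2, Aqp4, Pax2, and Vil1) were chosen after their values were seen, apart from Wnk4. Alternatives were other size factors, filters, thresholds, the replicate number as a block, 1 fit of all libraries, each library left out, and, added after seeing the data, offsets for GC content and length. The bisulfite data were not analysed here.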

Additional observations from a re-analysis of the deposited data

How the results depend on the processing

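In kidney no member was called with DESeq2, other size factors, other filters, either threshold, the fit of 20 libraries, or the corrections for GC content and length. With each library left out in turn, 1 to 2938 genes and 0 to 3 members were called. The log2 fold change then ranged from -0.79 to 1.64 for Nphs1, from -1.003 to 2.03 for Slc34a1, from -0.50 to 0.44 for Slc13a3, from -0.41 to 0.95 for Kap, from 0.17 to 1.20 for Umod, from -1.12 to 2.90 for Slc12a3, and from -0.33 to 0.70 for Scnn1g, so that of these only Umod kept its sign. Slc12a1 and Calb1 kept theirs too. With the GC-corrected offsets the values were -0.41 for Slc13a3, 0.056 for Calb1, and -0.013 for Scnn1g, and with GC and length they were -0.62, 0.058, and -0.044. Scaling by total counts alone gave Slc12a1 a kidney mean of 1484 CPM in place of 1310.

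With the replicate number as a replicate block, the log2 fold changes turned to 0.37 for Nphs1, 0.44 for Slc34a1, -0.050 for Slc13a3, and 0.87 for Slc12a3, and together with the correction for GC content and length to 0.10 for Slc34a1, -0.50 for Slc13a3, 0.39 for Slc12a3, and 0.063 for Calb1. No member and no gene of the kidney was called in these fits. Deviations of equally numbered kidney libraries from their group means correlated with r = 0.29 over 13300 genes. With 2 pairs and no source stating that equal numbers mark a shared animal or day, the numbers were not treated as pairs, and whether they share a factor was not tested.

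Without a filter on low counts, 3 members were called higher in the KO spleen, namely Umod (4.82), Slc12a1 (4.65), and Calb1 (4.49 on the log2 scale). Of their spleen counts, KO replicate 1 held 59, 57, and 90, and KO replicate 2 held 0, 0, and 8. The share of all genes called without the filter is not given here, so the 3 calls are no result about these members. With 2 libraries in each group and a common coefficient of variation of 0.457 in kidney, the spread between replicates was wider than the counting error of the members at this depth.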

Other observations

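In 2 organs outside the kidney a member differed between replicate numbers in both genotypes. In the small intestine, Slc34a1 had 35 and 42 counts in WT and KO replicate 1 and 4 and 5 counts in WT and KO replicate 2. In the heart, Slc12a3 had 7 and 2 counts in WT and KO replicate 1 and 62 and 215 counts in WT and KO replicate 2, whose libraries were also deeper (36090637 and 41763236 counts against 17959542 and 15897446). As levels these were 0.435 and 0.15 CPM in replicate 1 and 1.7 and 5.09 CPM in replicate 2. The column names of the WT and KO replicate 2 hearts, and of no other library, also carry the label pre, whose meaning is not given. Kap was highest among heart libraries in WT replicate 1, with 39 counts against 2, 10, and 4 counts. The same library was highest for Slc34a1 with 16 counts, Umod with 6, and Scnn1g with 2, against 0 in each other heart library. It was also highest for Calb1, with 7 counts against 2 in each. Slc13a3, Slc12a1, and Slc12a3 were not highest there, and Nphs1 had 0 counts in every heart library. These are small counts, and what the library shares with kidney was not tested.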
